A study of Homo sapiens with 4 samples.

Results

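The genes described here encode the proteins that license replication origins and fire them. They were taken as the rows of the count table whose Ensembl identifier maps to 1 of 38 listed symbols, and all 38 were found among the 20263 genes of the table. Expression was measured by RNA sequencing of libraries made with an mRNA kit from MDA-MB-231, a human breast cancer cell line of the triple-negative, mesenchymal kind. The tested cells received RB-BC for 24 h, a compound derived from ribociclib, which inhibits CDK4 and CDK6, and the cells they were set against received the vehicle DMSO. Each group held 2 libraries, and both groups shared the same medium with serum and antibiotics. The sources used here give no dose, the study used 1 cell line, and the treatment protocol calls the agent Rib_CA without tying that name to RB-BC. No label says that the libraries came from separate cultures, so a p-value reflects how far these libraries differ, a spread that may be technical. In bulk RNA, fewer cells in the phase that expresses a gene and less RNA of it per cell cannot be told apart.

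Origins are licensed in G1, when the origin recognition complex marks a site and CDC6 and CDT1 load the MCM2 to MCM7 helicase there as an inactive ring. Geminin blocks further loading by binding CDT1. In S phase the kinase CDC7 with its activator DBF4, and cyclin-dependent kinases acting through TICRR and TOPBP1, recruit CDC45 and GINS, which turns the ring into an active helicase. Polymerase alpha-primase then lays the first primers. Many of these genes are known targets of E2F transcription factors, which the RB protein holds in check until CDK4, CDK6 and CDK2 phosphorylate it.

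Library totals ran from 34774542 to 42786422 counts. Mitochondrially encoded genes took 10.1% to 10.3% of the counts in RB-BC libraries, 8.68% in DMSO 1 and 21.7% in DMSO 2, so results were also computed with each library left out. Of the markers of the line, VIM, CD44, EGFR, CAV1 and AXL had 264 CPM or more in every library, and of these CAV1 fell (−1.10). ESR1 and PGR stayed at or below 1.73 CPM, CDH1 had 0.053 CPM or less, EPCAM had 5.49 to 9.34 CPM and the T cell gene CD3E had no counts. Of the markers of other cells, COL1A1, a fibroblast collagen, had 3.73 and 2.97 CPM in RB-BC, against 6.93 and 7.91 CPM in DMSO, and fell (−1.15, edgeR adjusted p = 0.029). The leukocyte gene PTPRC had 1.06 and 1.10 CPM in RB-BC, against 0.584 and 0.388 CPM in DMSO (1.14, edgeR adjusted p = 0.11). The endothelial gene PECAM1 had 1.94 and 1.55 CPM in RB-BC, against 1.09 and 0.686 CPM in DMSO (0.97, edgeR adjusted p = 0.128). All 3 had no overlap between the groups. Over all tested genes, 32.1% lay lower in RB-BC without overlap and 33.1% lay higher. PTPRC and PECAM1 did not pass, and the part of other cells in the results was not tested.

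Promoter windows are shown first because many of the 38 genes are known E2F targets. The motif counts describe the listed genes, and a part of E2F in their changes was not tested. RefSeq (GRCh38.p14) gave windows from 250 bases before to 50 after a start for 32 of the 38 genes, 42 windows in all, some of which overlap. The motif searched was TTTCCCGC or TTTCGCGC or TTTGCCGC or TTTGGCGC, on either strand. RECQL4, MCM4, MTBP, DONSON, MCM5 and GINS4 have no window here. The 7 windows below, each 300 bases in the direction of the gene, hold the largest fall (CLSPN), the window with the most matches (MCM6), the loaders CDC6 and CDT1 and geminin, which binds CDT1, a gene that fell steeply without a match (MCM10) and the gene with the smallest change (ORC2). They were chosen after their values were seen. GMNN has another window, which holds no match and is not shown, since the window with a match was picked. Capitals mark motif matches.
CLSPN, chr1:35769929-35770228, minus strand: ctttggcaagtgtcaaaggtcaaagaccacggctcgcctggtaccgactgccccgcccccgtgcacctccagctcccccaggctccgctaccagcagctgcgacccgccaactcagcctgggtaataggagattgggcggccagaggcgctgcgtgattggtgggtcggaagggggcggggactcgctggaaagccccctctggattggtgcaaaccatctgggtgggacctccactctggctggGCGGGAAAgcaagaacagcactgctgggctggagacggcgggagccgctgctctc
MCM6, chr2:135876394-135876693, minus strand: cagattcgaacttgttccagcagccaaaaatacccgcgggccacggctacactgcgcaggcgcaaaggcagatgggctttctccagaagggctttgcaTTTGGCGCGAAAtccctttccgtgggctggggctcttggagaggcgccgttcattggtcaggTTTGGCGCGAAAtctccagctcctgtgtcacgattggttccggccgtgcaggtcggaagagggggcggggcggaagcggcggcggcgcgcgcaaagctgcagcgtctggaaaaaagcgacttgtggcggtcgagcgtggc
CDC6, chr17:40287629-40287928, plus strand: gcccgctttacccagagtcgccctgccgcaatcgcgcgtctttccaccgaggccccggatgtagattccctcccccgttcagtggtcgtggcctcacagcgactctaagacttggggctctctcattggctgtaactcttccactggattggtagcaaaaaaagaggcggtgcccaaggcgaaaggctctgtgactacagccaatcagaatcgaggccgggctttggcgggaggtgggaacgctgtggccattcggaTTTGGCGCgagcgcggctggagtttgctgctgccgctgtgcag
GMNN, chr6:24775163-24775462, plus strand: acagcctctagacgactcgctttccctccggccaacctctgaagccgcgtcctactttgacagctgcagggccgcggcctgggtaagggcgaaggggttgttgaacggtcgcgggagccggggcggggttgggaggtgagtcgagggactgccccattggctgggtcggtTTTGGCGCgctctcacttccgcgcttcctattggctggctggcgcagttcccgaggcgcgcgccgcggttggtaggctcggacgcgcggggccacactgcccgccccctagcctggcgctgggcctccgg
CDT1, chr16:88803539-88803838, plus strand: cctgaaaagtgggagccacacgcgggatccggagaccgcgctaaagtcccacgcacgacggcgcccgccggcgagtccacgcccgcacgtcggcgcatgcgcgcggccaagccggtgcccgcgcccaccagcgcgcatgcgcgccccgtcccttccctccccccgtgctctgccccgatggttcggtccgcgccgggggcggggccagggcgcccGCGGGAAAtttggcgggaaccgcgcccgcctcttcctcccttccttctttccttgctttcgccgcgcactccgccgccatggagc
MCM10, chr10:13161308-13161607, plus strand: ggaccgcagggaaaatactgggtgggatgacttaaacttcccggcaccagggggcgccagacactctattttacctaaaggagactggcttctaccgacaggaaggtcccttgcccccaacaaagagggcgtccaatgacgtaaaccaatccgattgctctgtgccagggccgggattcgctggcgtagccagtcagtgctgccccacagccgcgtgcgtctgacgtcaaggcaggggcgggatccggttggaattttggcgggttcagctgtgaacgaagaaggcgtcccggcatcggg
ORC2, chr2:200963611-200963910, minus strand: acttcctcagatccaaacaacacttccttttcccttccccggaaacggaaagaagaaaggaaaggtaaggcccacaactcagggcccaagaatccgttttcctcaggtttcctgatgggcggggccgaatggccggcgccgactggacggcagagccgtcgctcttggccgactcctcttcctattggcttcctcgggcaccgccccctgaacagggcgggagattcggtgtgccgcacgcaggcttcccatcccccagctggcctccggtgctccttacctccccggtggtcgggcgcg
In MCM6 the 4 matches form 2 pairs that share letters, and each pair reads as an E2F motif on both strands. The match in CLSPN spans the start, that in CDC6 lies from base 8 to base 15 after it, and those in GMNN and CDT1 begin 80 and 35 bases before it. MCM10 and ORC2 hold no match, which says only that these letters are not in these windows.

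The motif stood in 18 of the 42 windows (42.9%), against 1164 of all 35116 windows in the table (3.31%) and 4.71% of the windows of tested genes. Among the windows of other genes that fell after RB-BC, 9.05% had it. By gene, 18 of the 32 had it, against 6.45% of tested genes. Of 26 matches, some of which share letters, 16 began within the 100 bases before a start. CCAAT, a frequent promoter element searched on both strands, stood in 59.5% of the windows of these genes. It stood in 34.6% of all windows, 34.4% of those of tested genes and 41.9% of those of other genes that fell. By gene, 65.6% of the 32 had CCAAT, against 42.9% of tested genes and 50.9% of other genes that fell. TTTGAA, known as the CHR element of late cell cycle genes, stood in 1 window, that of DBF4 (2.38%). It stood in 15.2% of all windows, 10.6% of those of tested genes and 16.9% of those of other genes that fell. A match is a description of letters, not of bound protein.

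After RB-BC, transcripts of 31 of the 38 genes fell and 0 rose by edgeR's quasi-likelihood test with Benjamini-Hochberg adjustment over all 13744 tested genes, at a threshold of 0.05. Over all tested genes, 7.53% were called lower and 8.58% higher. The median log2 fold change of the 38 was −1.07, or 47.7% of the DMSO level. The median over all tested genes was 0.00, a value that TMM scaling itself keeps near 0. With library totals alone these medians were −1.02 and 0.05. None of the 38 was called higher by DESeq2 or limma-voom either. At an unadjusted p under 0.05, 35 of the 38 were lower, against 17.0% of tested genes. At least 2-fold falls that passed numbered 21 of 38, against 3.24% of tested genes. Both RB-BC libraries lay below both DMSO libraries for 36 of the 38, a pattern seen for 32.1% of tested genes, and the exceptions were ORC2 and ORC5. Summed over the 38 genes, TMM-scaled CPM, counts divided by the scaled library size, were 1354 and 1420 in RB-BC 1 and RB-BC 2, against 3004 and 2970 in DMSO 1 and DMSO 2. The number of calls dropped most when either RB-BC library was left out, among the 38 and over all tested genes alike. With any 1 library left out, the median log2 fold change of the 38 stayed between −1.08 and −0.96. CLSPN, MCM10 and CDC6 were the 3 genes that passed in all 12 alternative fits. With library totals alone as the scaling 19 of the 38 fell, and the split over all tested genes was then 790 higher and 415 lower, against 1179 and 1035 with TMM.

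**Figure D1:**
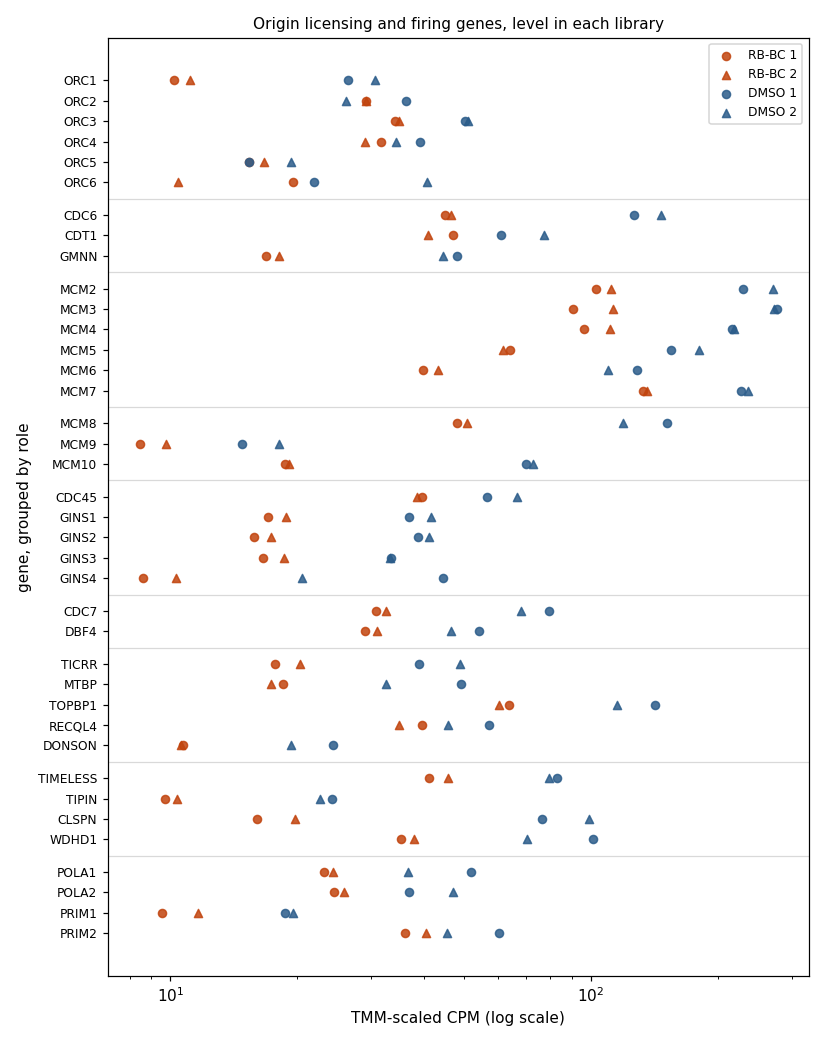
TMM-scaled CPM (log axis) of each of the 38 genes in the 4 libraries, grouped by role; orange symbols are RB-BC libraries and blue symbols DMSO libraries. RB-BC lies below DMSO for every gene except ORC2 and ORC5, where the groups overlap, and ORC6 and GINS4 show the widest gaps within a group.

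Of the 6 subunits of the origin recognition complex, ORC1 and ORC3 fell and 4 did not pass. ORC1, the largest subunit and the one whose amount is known to cycle in human cells, had 10.2 and 11.2 CPM in RB-BC, against 26.4 and 30.7 CPM in DMSO. It fell by 1.42 ± 0.17 on the log2 scale (SE, edgeR adjusted p = 0.00939), and the groups did not overlap. ORC3, another core subunit, had 34.3 and 34.9 CPM in RB-BC, against 50.1 and 51.0 CPM in DMSO, a fall of 0.55 ± 0.14 (edgeR adjusted p = 0.0447). ORC3 lost its call with scaling by totals (edgeR adjusted p = 0.16), with no low-count filter (edgeR adjusted p = 0.0543) and with the replicate number as a block (edgeR adjusted p = 0.0835). Leaving out either RB-BC library ended the call too, at an edgeR adjusted p of 0.337 when RB-BC 1 was omitted and 0.278 when RB-BC 2 was.

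The remaining core subunits did not pass. ORC2 had 29.2 and 29.1 CPM in RB-BC, between the DMSO values of 36.2 and 26.1 CPM (−0.10 ± 0.19, edgeR adjusted p = 0.754). ORC4 had 31.6 and 28.996 CPM in RB-BC, against 39.2 and 34.3 CPM in DMSO (−0.28 ± 0.15, edgeR adjusted p = 0.245). ORC5 had 15.4 and 16.7 CPM in RB-BC, against 15.4 and 19.4 CPM in DMSO (−0.12 ± 0.18, edgeR adjusted p = 0.677). For ORC2 and ORC5 the sign depended on the DMSO library used, at 0.16 without DMSO 1 for ORC2 and 0.06 without DMSO 2 for ORC5. ORC6, the subunit that in human cells joins the core only loosely, was uneven within both groups, with 19.5 and 10.4 CPM in RB-BC, against 21.9 and 40.8 CPM in DMSO. Its fitted change of −1.06 ± 0.39 was large but did not pass (edgeR adjusted p = 0.116), though DESeq2 called it lower (adjusted p = 0.034), as did edgeR when DMSO 1 was left out (−1.44, adjusted p = 0.0485). Without RB-BC 1 none of the 6 passed, ORC1 having an edgeR adjusted p = 0.0739, and without RB-BC 2 ORC1 was the 1 that passed.

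The loaders and their inhibitor showed unequal falls. CDC6 (ENSG00000094804), the ATPase that joins ORC and recruits the helicase, had 44.9 and 46.4 CPM in RB-BC, against 127 and 147 CPM in DMSO, or 33.3% of the DMSO level (log2 fold change −1.59 ± 0.15, edgeR adjusted p = 0.00685). GMNN, which encodes geminin, had 16.9 and 18.1 CPM in RB-BC, against 48.1 and 44.5 CPM in DMSO, and fell by 1.40 ± 0.15 (edgeR adjusted p = 0.00824). CDT1, the partner that geminin binds, had 47.0 and 41.0 CPM in RB-BC, against 61.3 and 77.3 CPM in DMSO. The groups did not overlap for any of the 3 genes, yet CDT1 at −0.66 ± 0.17 missed the threshold (edgeR adjusted p = 0.0528). DESeq2 called it lower (adjusted p = 0.0117), as did edgeR when DMSO 1 was left out (−0.81, adjusted p = 0.0205). When RB-BC 1 was left out GMNN missed the threshold (edgeR adjusted p = 0.0642) and CDC6 kept its call (edgeR adjusted p = 0.0481).

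Levels of different genes were compared as CPM per kilobase of GENCODE 29 basic exons. On that scale CDT1 stood at 1.17 and 0.95 times GMNN in RB-BC, against 0.53 and 0.73 times in DMSO. CDC6 stood at 0.64 and 0.76 times CDT1 in RB-BC, against 1.39 and 1.28 times in DMSO. Neither ratio overlapped between the groups: CDT1 was higher relative to both partners in the RB-BC libraries. The ratio of CDC6 to CDT1 was not among those planned. With 2 libraries against 2, an exact two-sided permutation test cannot give a p under 0.333, so the ratios are given as values per library.

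All 6 subunits of the replicative helicase ring, MCM2 to MCM7, fell. MCM6 had 39.8 and 43.2 CPM in RB-BC, against 129 and 110 CPM in DMSO, the steepest of the 6 at −1.52 ± 0.15 (edgeR adjusted p = 0.00779). MCM3 had 90.6 and 113 CPM in RB-BC, against 277 and 272 CPM in DMSO (−1.43 ± 0.17). MCM7 had 133 and 136 CPM in RB-BC, against 228 and 236 CPM in DMSO, the shallowest at −0.79 ± 0.14 (edgeR adjusted p = 0.0195). The other 3 lay between, and in each both RB-BC values were below both DMSO values. MCM5 had 64.0 and 61.8 CPM in RB-BC, against 155 and 181 CPM in DMSO (−1.42). MCM2 had 103 and 111 CPM in RB-BC, against 230 and 271 CPM in DMSO (−1.23). MCM4 had 96.3 and 111 CPM in RB-BC, against 217 and 219 CPM in DMSO (−1.07). The 6 together had 526 and 576 CPM in RB-BC, against 1234 and 1289 CPM in DMSO. All 6 passed with library totals alone and without either DMSO library, 3 passed without RB-BC 2 (MCM3, MCM5 and MCM6) and 0 without RB-BC 1, where edgeR's adjusted p ran from 0.0591 to 0.2.

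The ring takes 1 of each subunit, but transcript levels per kilobase were unequal in both groups and the order of the subunits shifted. MCM7 made up 25.3% and 23.6% of the summed MCM2 to MCM7 level per kilobase in RB-BC, against 18.4% and 18.2% in DMSO. MCM3 made up 19.6% and 22.3% in RB-BC, against 25.3% and 23.8% in DMSO. MCM7 was thus the most abundant of the 6 in both RB-BC libraries and MCM3 in both DMSO libraries. MCM6 was the least abundant in all 4, at 7.39% and 7.34% in RB-BC, against 10.1% and 8.27% in DMSO. The highest of the 6 exceeded the lowest 3.43 and 3.21 times in RB-BC, against 2.50 and 2.88 times in DMSO. MCM7 shares 392 exonic bases (8.94% of its exons) with AP4M1 on the opposite strand, and the strand setting of the counting is not given, so part of its count may belong there. The same holds for MCM2, where an annotated antisense gene covers 22.7% of the exons.

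**Figure D2:**
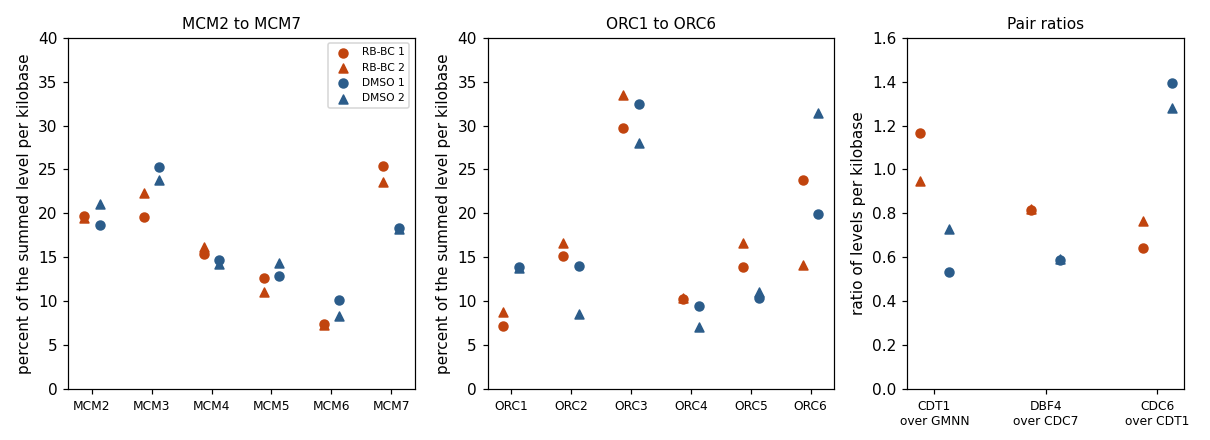
Share of each MCM subunit (left) and each ORC subunit (middle) in the summed level per kilobase of its complex, in percent, and ratios of levels per kilobase for 3 gene pairs (right), per library; orange is RB-BC and blue DMSO. MCM7 lies above MCM3 in the RB-BC libraries, ORC1 has 7.22% and 8.72% in RB-BC against 13.9% and 13.8% in DMSO, and each pair ratio is apart between the groups.

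Of the other MCM proteins, MCM10 (ENSG00000065328), which helps activate the assembled helicase, had 18.7 and 19.2 CPM in RB-BC, against 70.1 and 72.7 CPM in DMSO. It had the smallest adjusted p of the 38 (−1.91 ± 0.14, edgeR adjusted p = 0.00452), and its values were close within each group. MCM8, which with MCM9 forms a helicase used in homologous recombination, had 48.0 and 50.8 CPM in RB-BC, against 151 and 119 CPM in DMSO (−1.45 ± 0.17, edgeR adjusted p = 0.00939). Its partner MCM9 had 8.46 and 9.74 CPM in RB-BC, against 14.8 and 18.1 CPM in DMSO, and fell as well (−0.85 ± 0.19, edgeR adjusted p = 0.037). Without RB-BC 1 neither MCM8 (edgeR adjusted p = 0.0713) nor MCM9 (0.251) passed, and MCM9 also missed the threshold without RB-BC 2 (edgeR adjusted p = 0.124), without DMSO 2 (edgeR adjusted p = 0.05003) and with library totals alone (edgeR adjusted p = 0.0754).

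CDC45 and the 4 GINS subunits, which complete the active helicase, all fell. CDC45 had 39.6 and 38.6 CPM in RB-BC, against 56.5 and 66.7 CPM in DMSO, the smallest change of the 5 (−0.66 ± 0.15, edgeR adjusted p = 0.0374). GINS2 had 15.8 and 17.4 CPM in RB-BC, against 38.8 and 41.2 CPM in DMSO (−1.27 ± 0.15, edgeR adjusted p = 0.00945). GINS1 had 17.1 and 18.8 CPM in RB-BC, against 36.9 and 41.7 CPM in DMSO (−1.13). The GINS subunits work as 1 complex, and GINS3 was at −0.92. GINS3 had 16.6 and 18.6 CPM in RB-BC, against 33.5 and 33.4 CPM in DMSO, and shares 558 exonic bases with an annotated antisense gene. GINS4 had the largest fitted fall of the 5 (−1.78 ± 0.37, edgeR adjusted p = 0.0297), but its DMSO libraries stood apart, with 8.60 and 10.3 CPM in RB-BC, against 44.5 CPM in DMSO 1 and 20.5 CPM in DMSO 2. The value was −1.11 without DMSO 1 and −2.23 without DMSO 2, and an annotated antisense gene covers 1159 of its exonic bases (21.2%). CDC45 was lost under the replicate block (edgeR adjusted p = 0.0513). With library totals alone CDC45, GINS3 and GINS4 were lost (edgeR adjusted p = 0.0903, 0.053 and 0.0505). Without RB-BC 1 none of the 5 passed, and without RB-BC 2 only GINS2 did.

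CDC7, the catalytic subunit of the kinase that phosphorylates the loaded MCM ring, had 30.8 and 32.5 CPM in RB-BC, against 79.6 and 68.1 CPM in DMSO (−1.22 ± 0.15, edgeR adjusted p = 0.0103). DBF4, its activating subunit, had 29.1 and 30.9 CPM in RB-BC, against 54.1 and 46.6 CPM in DMSO (−0.75 ± 0.15, edgeR adjusted p = 0.0283). GENCODE 29 names 1 pseudogene after DBF4, so its count is uncertain where reads fit both. The level of DBF4 per kilobase was 0.81 and 0.82 times that of CDC7 in RB-BC, against 0.59 times in both DMSO libraries. Neither gene passed without RB-BC 1 or without RB-BC 2 (edgeR adjusted p from 0.0529 to 0.234), and scaling by totals cost DBF4 its call (edgeR adjusted p = 0.104).

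Among the firing factors, 4 of 5 fell. TICRR, the human treslin that carries the CDK signal, had 17.7 and 20.3 CPM in RB-BC, against 39.0 and 48.8 CPM in DMSO (−1.21 ± 0.18, edgeR adjusted p = 0.0146). MTBP, the binding partner of treslin, had 18.5 and 17.3 CPM in RB-BC, against 49.0 and 32.6 CPM in DMSO (−1.19 ± 0.22, edgeR adjusted p = 0.0236). TOPBP1, the scaffold that treslin contacts, had 63.9 and 60.4 CPM in RB-BC, against 142 and 115 CPM in DMSO (−1.05 ± 0.16, edgeR adjusted p = 0.0154). TICRR shares 589 exonic bases (7.01%) with KIF7 on the opposite strand. The 3 genes thus stood at 43.4%, 43.9% and 48.3% of their DMSO levels. DONSON, which helps bring GINS to the ring, had 10.7 and 10.6 CPM in RB-BC, against 24.4 and 19.3 CPM in DMSO (−1.04 ± 0.18, edgeR adjusted p = 0.02). It shares 307 exonic bases (8.74%) with SON on the opposite strand, a gene with many more counts, and is uncertain. RECQL4, a helicase of the RecQ family with a role in initiation, had 39.6 and 35.0 CPM in RB-BC, against 57.2 and 45.6 CPM in DMSO, and did not pass (−0.46 ± 0.17, edgeR adjusted p = 0.115) except without DMSO 2 (−0.62, edgeR adjusted p = 0.032). Without either RB-BC library none of the 5 passed, and with library totals alone MTBP and DONSON were lost (edgeR adjusted p = 0.0589 and 0.0617).

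CLSPN (ENSG00000092853) had the largest fall of all 38 genes. It encodes claspin, which travels with the fork and is the adaptor through which ATR activates the checkpoint kinase CHEK1. It had 16.1 and 19.8 CPM in RB-BC, against 76.4 and 99.1 CPM in DMSO, 4.89-fold lower (log2 fold change −2.29 ± 0.20, edgeR adjusted p = 0.00636), and ranked 61st among the fitted falls of all tested genes. TIMELESS, its partner in the fork protection complex, had 41.3 and 45.8 CPM in RB-BC, against 83.0 and 79.4 CPM in DMSO (−0.90 ± 0.14, edgeR adjusted p = 0.0156). TIPIN, the small partner of TIMELESS, had 9.70 and 10.4 CPM in RB-BC, against 24.3 and 22.7 CPM in DMSO (−1.23 ± 0.16). WDHD1, which couples the helicase to polymerase alpha, had 35.4 and 37.96 CPM in RB-BC, against 101 and 70.4 CPM in DMSO (−1.22 ± 0.20). All 4 passed with either DMSO library left out, and of the 4, CLSPN passed with either RB-BC library left out. TIMELESS was just over the threshold when only totals were used for scaling (edgeR adjusted p = 0.0504). TIPIN shares 579 exonic bases (21.0%) with RPL9P25, a ribosomal protein pseudogene on its strand, so its count may hold reads from elsewhere.

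Of the 4 subunits of polymerase alpha-primase, 3 fell, and the median over the 4 was −0.80. POLA1, the polymerase subunit, had 23.2 and 24.3 CPM in RB-BC, against 52.0 and 36.8 CPM in DMSO (−0.90 ± 0.20, edgeR adjusted p = 0.0359). POLA2, its regulatory subunit, had 24.5 and 25.9 CPM in RB-BC, against 36.9 and 46.9 CPM in DMSO (−0.73 ± 0.17, edgeR adjusted p = 0.04). PRIM1, the primase catalytic subunit, had 9.52 and 11.7 CPM in RB-BC, against 18.7 and 19.6 CPM in DMSO (−0.86 ± 0.18, edgeR adjusted p = 0.0303). All 3 were below every DMSO value, but 0 of them passed with library totals alone or with either RB-BC library left out. PRIM2, the large primase subunit, had 36.1 and 40.4 CPM in RB-BC, against 60.3 and 45.6 CPM in DMSO, and did not pass (−0.47 ± 0.18, edgeR adjusted p = 0.129) except without DMSO 2 (−0.66, edgeR adjusted p = 0.0259). POLA2 shares 35.1% of its exons with a protein-coding gene on its strand, and PRIM1 14.9% with another such gene. Neither of these overlapping genes has a row in the count table, and the counts of POLA2 and PRIM1 are uncertain.

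**Figure D3:**
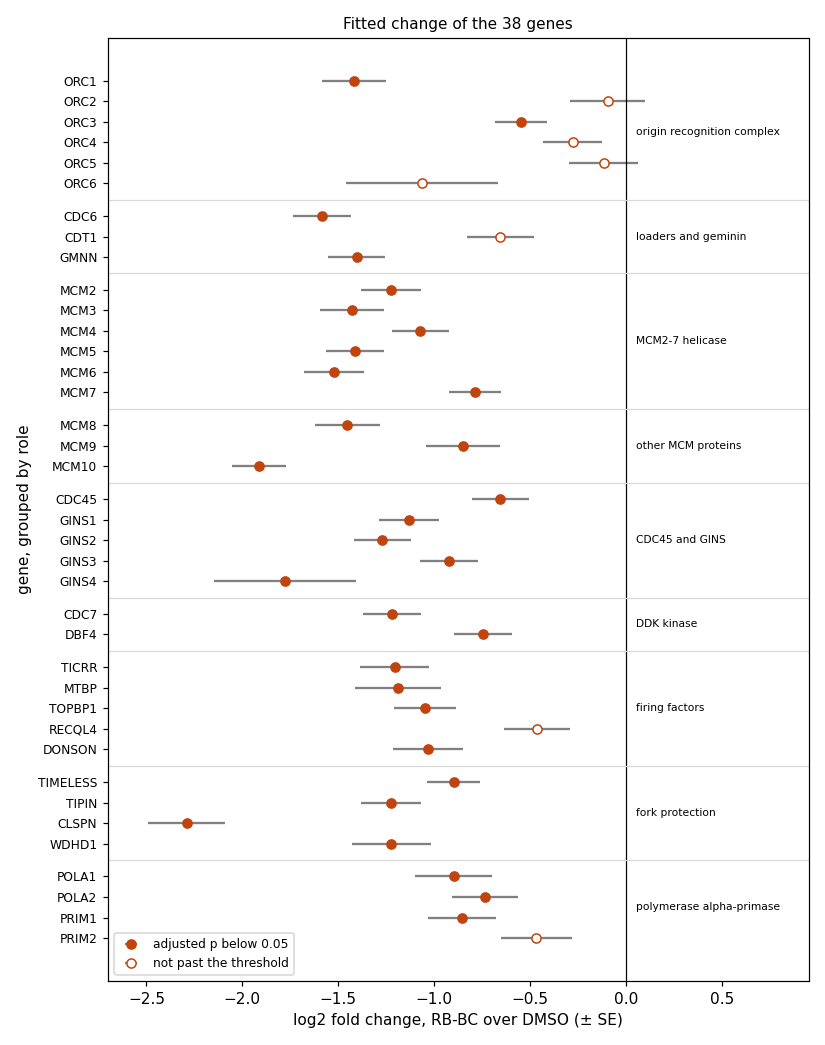
Fitted log2 fold change, RB-BC over DMSO, with its SE for the 38 genes by role (DDK is the kinase of CDC7 and DBF4); filled points have an edgeR adjusted p below 0.05. All 38 estimates lie below 0, the largest being CLSPN (−2.29), MCM10 (−1.91) and GINS4 (−1.78), and 4 of the 7 open points are ORC subunits.

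Set by role, the median log2 fold change was −1.45 for the other MCM proteins, −1.40 for loaders and geminin, −1.32 for MCM2 to MCM7, −1.22 for fork protection, −1.13 for CDC45 and GINS, −1.05 for firing factors, −0.98 for CDC7 and DBF4, −0.80 for polymerase alpha-primase and −0.41 for the origin recognition complex. These medians rest on 2 to 6 genes each, and differences between roles were not tested. Between replicates, RB-BC 1 over RB-BC 2 ran from 0.80 to 1.15 with ORC6 (1.87) set aside. DMSO 1 over DMSO 2 ran from 0.54 (ORC6) to 2.17 (GINS4), and 19 of the 38 genes were higher in DMSO 1.

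**Figure D4:**
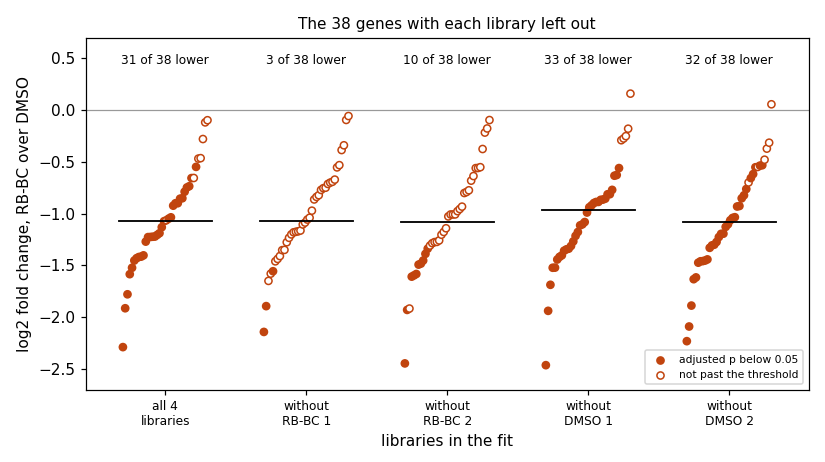
Log2 fold change, RB-BC over DMSO, of the 38 genes (sorted within each column) in the fit of all 4 libraries and in fits without 1 library; filled points have an edgeR adjusted p below 0.05 and bars are medians. The medians stay between −1.08 and −0.96 while the number of genes called lower is 31, 3, 10, 33 and 32.

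Fitted changes ran from −1.91 to −0.10 in genes without an E2F motif match in a window. They ran from −2.29 to −0.55 with 1 match and from −1.52 to −0.79 with 2 or more. A gene without a match lacks only the letters searched, and a part of E2F in these changes was not tested. Of the 14 genes without a match 9 fell, with a median log2 fold change of −0.85. Of the 12 with 1 match 11 fell, at −1.09, and all 6 with 2 or more fell, at −1.23. In MCM2 and TIPIN the 2 matches share letters, as within each pair of MCM6, so a match is not always a separate site. Among genes without a match, ORC2, ORC4, ORC5, ORC6 and PRIM2 did not pass while MCM10 was second only to CLSPN. CDT1 had a match and did not pass, and MCM7, with 2 matches in 1 of its 3 windows, had the smallest fitted fall of MCM2 to MCM7. With the shorter core (TTCCCGC or TTCGCGC or TTGCCGC or TTGGCGC) 22 of the 32 genes had a match, against 24.5% of tested genes and 34.8% of the other genes that fell.

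**Figure D5:**
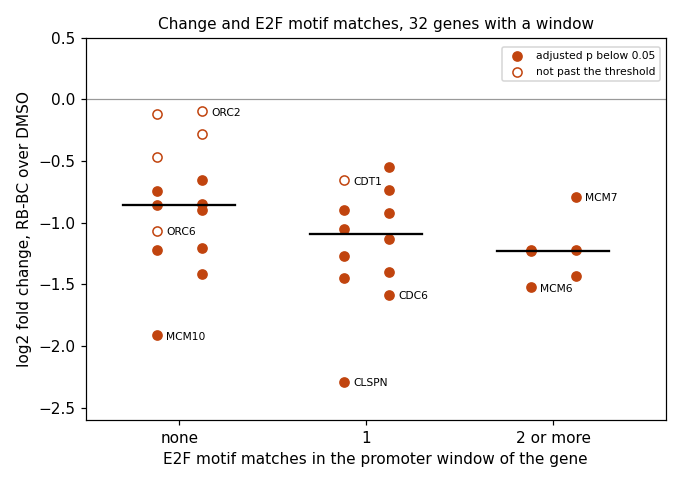
Log2 fold change, RB-BC over DMSO, of the 32 genes with a promoter window, by the highest number of E2F motif matches in any of their windows; filled points have an edgeR adjusted p below 0.05 and bars are medians. The medians are −0.85, −1.09 and −1.23 for no match, 1 match and 2 or more, and the ranges overlap. Matches that share letters are each counted.

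Other genes of the same pathway, 46 in 5 lists, gave 18 falls and 1 rise, with a median log2 fold change of −0.50. For these and the list counts below, the shares called over all tested genes were 7.53% lower and 8.58% higher. Falls were fewer with either RB-BC library left out, here and over all tested genes. With library totals alone 8 of these genes fell, against 415 over all tested genes. Of 10 S-phase kinase genes and further firing factors, 8 fell and 0 rose. CCNE2, a cyclin that activates CDK2, had 7.42 and 9.38 CPM in RB-BC, against 60.8 and 58.8 CPM in DMSO (−2.83 ± 0.18, edgeR adjusted p = 0.00378). POLE, the catalytic subunit of the leading-strand polymerase, had 48.9 and 51.3 CPM in RB-BC, against 141 and 149 CPM in DMSO (−1.53), and POLE2, its partner in helicase assembly, was at −1.31. The histone-fold subunits POLE3 (−0.65 ± 0.25) and POLE4 (−0.45 ± 0.22) did not pass.

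Of 15 genes listed as regulators of licensing, 5 fell and 0 rose. FBXO5, which encodes the inhibitor EMI1 of the anaphase-promoting complex, had 22.6 and 21.1 CPM in RB-BC, against 55.1 and 57.3 CPM in DMSO (−1.36 ± 0.14, edgeR adjusted p = 0.00819). SKP2 (−1.33) and DTL (−1.06), which both direct CDT1 to ubiquitin ligases, CCNF (−0.999), the cyclin that marks CDC6, and MCMBP (−0.66), an MCM chaperone, were the other 4. The core ligase subunits CUL4A (−0.01 ± 0.14) and RBX1 (0.01 ± 0.18) did not pass. Of 8 checkpoint genes 2 fell, CHEK1 (−0.59 ± 0.14) and ATR (−0.92 ± 0.23), and RAD17 (0.00 ± 0.20) and HUS1 (0.14 ± 0.18) did not pass.

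Of 9 genes that take the helicase off chromatin, LRR1 (−1.09 ± 0.27), TRAIP (−0.65 ± 0.16) and VCP (−0.64 ± 0.15) fell. ELOB, a subunit shared by many cullin ligases, was the 1 that rose, with 92.2 and 73.5 CPM in RB-BC, against 51.6 and 50.8 CPM in DMSO (0.69 ± 0.16, edgeR adjusted p = 0.0394). ELOC (−0.07) and FAF2 (−0.05) did not pass. The 4 relatives of MCM8, MCM9 and geminin did not pass edgeR's test, and 0 had an unadjusted p under 0.05. HROB, the loader of MCM8 and MCM9, was at −0.39 ± 0.16, MCMDC2 at −0.59 ± 0.48, and the geminin relatives GMNC and MCIDAS at −0.54 ± 0.57 and −0.33 ± 0.22.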

How the data were processed

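RNA from 2 RB-BC and 2 DMSO libraries was analysed from 1 deposited table of whole-number read counts per Ensembl gene. The sources used here name no aligner, counter, strand setting or annotation. The submitters' processing notes name the mouse builds GRCm38 and mm10, while the identifiers are human, so no coordinates were taken from the counts. Symbols came from a gene name table (20148 identifiers) and GENCODE 29 (76), and 39 had none.

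Genes were kept by filterByExpr in edgeR 4.0.16 under R 4.3.3 (minimum count 10, minimum total 15), scaled by TMM and tested two-sided. SE is the absolute log2 fold change over the square root of F. The 38 genes had 367 to 10412 counts in any library, and all passed the filter. The genes and lists were chosen with earlier results of these data known. All 38 genes may be named, with values in every library by role for the largest and smallest changes and for genes that did not pass or lost their call in a fit of all 4 libraries, and for others where shown. From the other lists, genes with up to 3 smallest and 2 largest p were named, some by fold change alone, with DTL, MCMBP and TRAIP added after their values were seen. Alternatives, including DESeq2 1.42.0 and limma 3.58.1, are listed in the closing section. In simulated data the fit recovered 0 of 49 genes changed 1.5-fold and 10 of 49 changed 2-fold. It recovered 42 of 50 changed 4-fold and 47 of 50 changed 8-fold. Of 13580 genes run, 17 unchanged ones were called. The simulation changed fewer genes than were called here, so its rates need not hold for these calls.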

Additional observations from a re-analysis of the deposited data

How the results depend on the processing

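The number of origin genes called lower was 31 with size factors by RLE, and it stayed within 1.5 times 31 with a mean minimum of 50 counts, without any low-count filter, with mitochondrially encoded genes removed, DESeq2, limma-voom and the replicate block (29). It was 19 with library totals alone. Leaving out 1 library gave 3 to 33, and the median log2 fold change then ran from −1.08 to −0.96. None of the 38 was called higher in any fit. Signs turned for ORC2 (−0.31 to 0.16 with 1 library left out, positive without DMSO 1) and ORC5 (−0.27 to 0.06, 0.057 without DMSO 2), neither of which was called. Other pathway genes called lower numbered 8 with library totals alone and 1 to 21 with 1 library left out; these alternatives were chosen after seeing the data. Over all tested genes, calls lower were 415 with library totals alone, 1589 with DESeq2 and 56 to 1760 with 1 library left out, and calls higher were 149 to 1888 with 1 library left out. The cause of these shifts was not tested. A fit that leaves a group with 1 library takes the spread from the other pair and assumes that the lone library varies alike. Deviations of same-numbered libraries from their group means had a correlation of −0.03 over the tested genes. With 2 libraries per group this is a single value, and it cannot show whether they shared a culture or batch. Under the replicate block ORC3 and CDC45 were lost and 962 genes were lower over all. Scaling by the longest transcript, also chosen after seeing the data, put MCM7 at 27.5% of MCM2 to MCM7 in RB-BC and 20.8% in DMSO, ORC1 at 13.1% of the ORC subunits in DMSO, and DBF4 at 0.80 times CDC7 in RB-BC and 0.58 times in DMSO. The 38 genes had 367 to 10412 counts in any library, and the effect of depth on their calls was not tested.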
